A study of Mus musculus with 28 samples.

Results

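The genes described here are 7 transcription factors linked to T cell quiescence: the Krüppel-like factors Klf2, Klf3, Klf6 and Klf13 and the forkhead factors Foxo1, Foxo3 and Foxp1. They were taken by name, but with earlier results of these data known, so they are not an independently chosen set. All 7 were found among the 21614 genes of the count table of PD-1- subsets, the 20603 genes of the count table of treated animals and the 27933 genes of the single-cell UMI table, and all 7 passed the filter on low counts in both bulk tables.

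The cells were CD8+ T cells that had entered tumours (TILs), and all came from C57BL/6 mice without an engineered allele in which MC38-OVA, colon carcinoma cells that make ovalbumin, had been implanted. One set of 14 libraries divides the PD-1-CD8+ TILs by sort, with no treatment named: 3 of effector-like cells, defined as CD62L-Slamf7hiCX3CR1+, 5 of memory-like cells, defined as CD62L-Slamf7hiCX3CR1-, and 6 of naive-like cells, defined as CD62LhiSlamf7-CX3CR1-. From mice given antibodies to Tim-3 and PD-1 (blockade) or isotype control antibodies, Tim-3+PD-1+ (DP) and Tim-3-PD-1- (DN) CD8+ TILs were sorted on day 12 after tumour implantation, with 3 libraries in each of the groups DP blockade, DP isotype, DN blockade and DN isotype. Single DN cells were sequenced from 1 library after blockade and 1 after isotype. Genotype, strain and tumour were shared by every group, and no group of cells from outside a tumour was analysed here. The labels do not say which libraries came from separate animals, so p-values measure the spread between libraries, which may in part be technical.

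Each bulk library came from about 2000 sorted cells, which limits it as a sample of its subset. The subset libraries held 5027083 to 7978214 counts and the treatment libraries 8005823 to 13579278. Core T cell genes (Cd3d, Cd3e, Cd3g, Cd8a, Cd8b1, Cd2, Lck and Ptprc) summed to 4332 to 7167 CPM, or counts scaled to a fixed library total, in the 26 bulk libraries, so each carried the T cell genes its label names. The library names of all naive-like samples carry another date than those of the effector-like and memory-like samples, so in comparisons with naive-like cells the date and the subset cannot be told apart. Effector-like replicates 1 and 2 have library names with 3 numbers each, so they may be pools, and the number 5 is in the names of both replicate 2 and replicate 3. Memory-like replicate 2, naive-like replicates 4 and 6 and effector-like replicate 3 correlated least with their own groups, and counts that change without these 4 libraries are given with the result. In bulk samples, fewer cells of a type and less RNA per cell cannot be told apart.

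Quiescence in T cells is an actively held state of small size and low metabolism. Klf2 sustains it and drives genes for recirculation through lymph nodes, among them S1pr1, the sphingosine-1-phosphate receptor used to leave tissue. FOXO factors are held in the cytoplasm when AKT phosphorylates them after antigen receptor, co-stimulatory or cytokine signals; in the nucleus Foxo1 activates Klf2, Ccr7 (a lymph node homing receptor) and Il7r (the interleukin-7 receptor used for survival). Foxp1 is needed for naive T cells to stay quiescent and acts on Il7r in opposition to Foxo1. RNA levels do not report AKT signalling or where a FOXO protein is in the cell.

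Krüppel-like factors bind GC-rich boxes (GGGCGG) and CACCC boxes, and MEF2 factors are known to activate Klf2. The stretches before the start sites of Klf2 and Klf3, which changed together between DP and DN cells, and of Klf6, which passed the test in no comparison, are shown so that these letters can be read. They come from RefSeq (GRCm38.p6), plus strand, and end at the base before the gene start in GENCODE M21. Capitals mark GC boxes, CACCC boxes and, in Klf2, the MEF2 motif, on either strand. In Klf3 a GC box and a CACCC box overlap in 1 run of capitals.
Klf2, chr8:72318812-72319032: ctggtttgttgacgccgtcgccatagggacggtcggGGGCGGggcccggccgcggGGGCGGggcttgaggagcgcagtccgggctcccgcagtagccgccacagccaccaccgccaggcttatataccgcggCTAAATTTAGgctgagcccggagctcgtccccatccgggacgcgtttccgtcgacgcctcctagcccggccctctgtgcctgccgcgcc
Klf3, chr5:64803271-64803387: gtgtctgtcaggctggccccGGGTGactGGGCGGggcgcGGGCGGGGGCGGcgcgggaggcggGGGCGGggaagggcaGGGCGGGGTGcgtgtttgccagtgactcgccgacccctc
Klf6, chr13:5861239-5861481: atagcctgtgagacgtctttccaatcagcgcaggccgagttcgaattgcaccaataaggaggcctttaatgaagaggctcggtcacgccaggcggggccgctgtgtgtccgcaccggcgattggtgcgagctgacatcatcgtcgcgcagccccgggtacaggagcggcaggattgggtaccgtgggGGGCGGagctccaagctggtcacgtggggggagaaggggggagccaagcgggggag

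Over the whole 250 bases before the RefSeq start, Klf3 held 6 GC boxes and 5 CACCC boxes, Klf2 held 2 and 1, and Klf6 held 1 and 0. Of the other members, Klf13 held 3 and 1, Foxo1 2 and 0, Foxo3 5 and 0, and Foxp1, at the first of its listed starts, 1 and 3. Of 27025 promoters of the same length, 32.94% held a GC box and 51.3% a CACCC box. The MEF2 motif, which began 118 bases before the start of Klf2, was in 3.008% of promoters and in none of the other 6 members. The forkhead site TGTTTAC was in 3.093% of promoters and in the window of none of the 7. A match is a run of letters and was not tested for binding.

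In GENCODE M21 (GRCm38) all 7 are protein-coding: Klf2 at chr8:72319033-72321656 and Klf6 at chr13:5861482-5870394 are compact, and Foxp1 spans chr6:98925338-99522721 on the minus strand. Klf3 (chr5:64803388-64832901) shares 404 exonic bases with the antisense gene Gm20033 and Foxo1 (chr3:52268336-52353221) shares 589 with the antisense gene Gm20402. Whether strand was used in counting is not given in the sources used here, so their reads cannot be told apart from those of these partners. Klf13 (chr7:63886351-63938915) and Foxo3 (chr10:42181841-42276755), both on the minus strand, share no exonic bases with another annotated gene.

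On the authors' normalized scale, which divides by gene length to a close approximation and so allows levels of different genes to be compared, Klf6 and Klf13 were the most abundant members in naive-like cells, with mean levels of 115 ± 22.9 and 93.4 ± 17.9 (SD, n = 6). Foxp1 had a level of 39.3 ± 4.15 there, Klf2 32.6 ± 7.62, Klf3 15.9 ± 4.50, Foxo1 14.1 ± 3.16 and Foxo3 8.49 ± 1.64. In DP isotype cells, set on the scale of the other table, the levels of Klf6 and Klf13 were 119.5 ± 17.4 and 46.3 ± 4.68, and Foxp1 followed at 8.76 ± 0.960 (SD, n = 3). Foxo3 came next at 4.24 ± 0.479 and Foxo1 at 3.71 ± 0.540. Klf2 and Klf3 had the lowest levels of the 7 in DP isotype cells, at 2.13 ± 0.438 and 0.623 ± 0.388. All other levels below are CPM after TMM scaling, which does not divide by length.

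**Figure D1:**
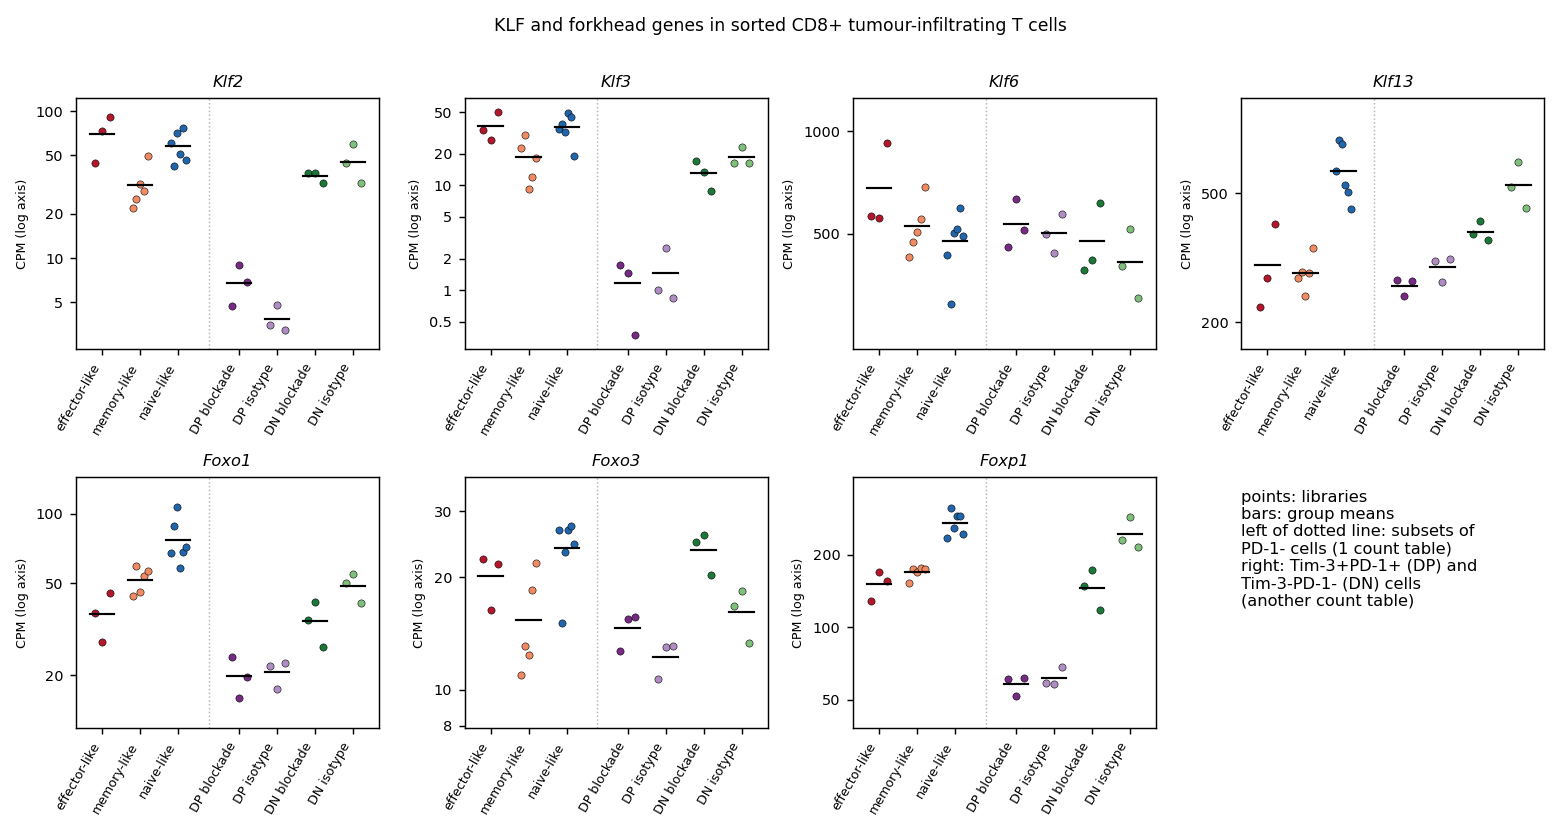
CPM (log axis, another range in each panel) of the 7 members in each bulk library; points are libraries, bars are group means, and the dotted line parts the 2 count tables. Klf2 and Klf3 are far lower in every DP library than in every DN library, while the Klf6 groups overlap throughout.

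The first comparisons ask how the members differ among effector-like, memory-like and naive-like PD-1- cells. Klf13 and Foxp1 were lower in effector-like and in memory-like than in naive-like cells, and Foxo1 was lower in effector-like than in naive-like cells. Klf2 and Klf3 had the same rank order in the 3 subsets, with memory-like cells at the bottom, but no difference between subsets passed the test for either. No member passed the test between effector-like and memory-like cells. With edgeR's quasi-likelihood test and Benjamini-Hochberg adjustment over all 12388 genes tested, 3 of 7 members passed (all lower) in effector-like against naive-like cells, where 6.42% of all genes passed and 3.79% were lower. In memory-like against naive-like cells 2 of 7 passed, both lower, where 5.51% of all genes passed and 2.73% were lower. In effector-like against memory-like cells 0 of 7 passed, where 1.91% of all genes did; 3 members, Klf2, Klf3 and Foxo1, had an unadjusted p under 0.05 there, as did 11.5% of all genes, limma-voom called 0 and DESeq2 called 1.

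Klf2 had 44.2, 73.7 and 90.6 CPM in effector-like cells, 21.8, 25.2, 32.1, 28.8 and 49.7 CPM in memory-like cells, and 42.3 to 76.7 CPM with a median of 55.8 CPM in naive-like cells. All memory-like libraries but replicate 5 were below every library of the other subsets. Group means were 69.5 ± 23.5, 31.5 ± 10.9 and 57.9 ± 13.8 CPM for effector-like (n = 3), memory-like (n = 5) and naive-like cells (n = 6). Effector-like against memory-like cells gave a log2 fold change of 1.14 ± 0.29 (SE; edgeR adjusted p = 0.0609), just short of the threshold of 0.05, and memory-like against naive-like cells -0.88 ± 0.25 (edgeR adjusted p = 0.0526). Without memory-like replicate 5 these adjusted p-values were 0.0166 and 0.0175, without effector-like replicate 1 the first was 0.0375, and without naive-like replicate 6 the second was 0.0468. With any other single library of the groups compared left out, neither passed. The second was then as high as 0.133 (edgeR adjusted p, without memory-like replicate 1). Between effector-like and naive-like cells the log2 fold change was 0.26, with a 95% interval of -0.34 to 0.86, so differences inside it were not detectable at this spread, and it was -0.07 without the 4 libraries that correlated least with their groups.

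Klf3, a repressor that binds the same CACCC boxes, had 33.3, 27.1 and 50.2 CPM in effector-like cells. In memory-like cells it had 22.5, 30.4, 9.19, 12.0 and 18.2 CPM, and in naive-like cells 18.99 to 48.8 CPM with a median of 36.2 CPM. Memory-like libraries ranged widely and overlapped both other subsets. The log2 fold change was 0.998 ± 0.37 for effector-like against memory-like cells (edgeR adjusted p = 0.261) and -0.97 ± 0.32 for memory-like against naive-like cells (edgeR adjusted p = 0.0939). Without the 4 libraries that correlated least with their group, memory-like against naive-like cells gave -1.25 (edgeR adjusted p = 0.0202) and 4 of 7 members passed, with Klf3 and Foxo1 added to Klf13 and Foxp1. Klf3 also passed there without memory-like replicate 2 or naive-like replicate 6 (edgeR adjusted p = 0.0415 and 0.0472). With any other single library of these groups left out it did not pass, up to an edgeR adjusted p of 0.203 without memory-like replicate 3.

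Klf13, known from human T cells as an activator of the chemokine gene CCL5, separated naive-like cells from both other subsets. It had 223, 274 and 403 CPM in effector-like cells, 273, 285, 242, 284 and 339 CPM in memory-like cells, and 447 to 728 CPM with a median of 559 CPM in naive-like cells. No effector-like or memory-like library reached the lowest naive-like library. Klf13 was 1.95-fold lower in effector-like than in naive-like cells (log2 fold change -0.96 ± 0.20; edgeR adjusted p = 0.00641) and 2.05-fold lower in memory-like than in naive-like cells (-1.04 ± 0.16; edgeR adjusted p = 0.00212). The effector-like and memory-like means, 299.8 ± 92.6 and 284.4 ± 35.0 CPM, differed by less than the spread between libraries.

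Foxp1, the forkhead repressor described above, split the subsets as Klf13 did. Its levels were 128, 169 and 156 CPM in effector-like cells, 152, 174, 169, 177 and 174 CPM in memory-like cells, and 236 to 312 CPM with a median of 274 CPM in naive-like cells. Every naive-like library lay above every other library. The share of all genes with subsets apart in this way is not given here. The log2 fold change was -0.85 ± 0.13 in effector-like against naive-like cells (edgeR adjusted p = 0.000514) and -0.68 ± 0.11 in memory-like against naive-like cells (edgeR adjusted p = 0.00189). Foxp1 also overlaps the exons of the same-strand genes Gm20696 and Gm49348 by 130 and 135 bases of a longest transcript of 7177.

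Foxo1 had 37.1, 27.9 and 45.5 CPM in effector-like cells, 43.9, 59.4, 46.0, 53.7 and 56.4 CPM in memory-like cells, and 58.4 to 106.5 CPM with a median of 69.9 CPM in naive-like cells. Means ordered as effector-like, memory-like, naive-like from low to high, and only the outer pair passed the test. Foxo1 was 2.09-fold lower in effector-like than in naive-like cells (log2 fold change -1.06 ± 0.22; edgeR adjusted p = 0.00747), a call that was lost without effector-like replicate 2 (edgeR adjusted p = 0.0575). Memory-like against naive-like cells gave -0.57 ± 0.18 (edgeR adjusted p = 0.0822). Effector-like against memory-like cells gave -0.50 ± 0.22 (edgeR adjusted p = 0.393).

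Foxo3, a relative of Foxo1 that restrains T cell expansion, and Klf6, a widely expressed factor that rises early after stimulation, passed in no comparison of subsets. Foxo3 averaged 20.2 ± 3.29 CPM in effector-like, 15.3 ± 4.599 CPM in memory-like and 23.99 ± 4.63 CPM in naive-like cells. Klf6 averaged 682 ± 211 CPM in effector-like, 528 ± 98.3 CPM in memory-like and 475 ± 96.2 CPM in naive-like cells. The subsets overlapped for both genes. The 95% interval of the Klf6 log2 fold change reached from 0.09 to 0.95 in effector-like against naive-like cells (edgeR adjusted p = 0.160) and from -0.22 to 0.52 in memory-like against naive-like cells.

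**Figure D2:**
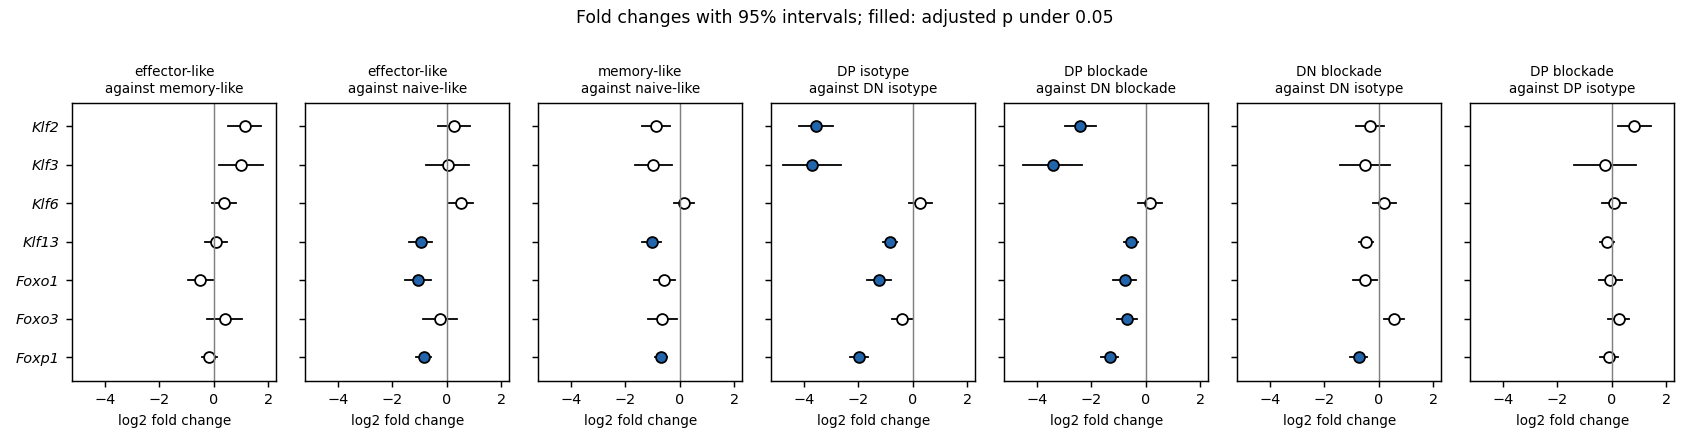
Log2 fold changes with 95% intervals from edgeR for the 7 members in the 3 comparisons of subsets and the 4 comparisons of treated animals; filled points passed an adjusted p of 0.05. Filled points lie left of 0 in every panel that has any, and Klf6 is open in all panels.

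S1pr1, Ccr7 and Il7r, which Klf2 or Foxo1 are known to activate, were lower in effector-like and in memory-like than in naive-like cells. S1pr1, which was not used in the sort, had 139, 114 and 202 CPM in effector-like cells, 129, 182, 142, 191 and 163 CPM in memory-like cells and 342 to 603 CPM with a median of 488 CPM in naive-like cells. It was 3.16-fold lower in effector-like (edgeR adjusted p = 0.000104) and 2.96-fold lower in memory-like than in naive-like cells (edgeR adjusted p = 0.000220). Between effector-like and memory-like cells no difference in S1pr1 was detectable (log2 fold change -0.09, 95% interval -0.52 to 0.34), while Klf2 averaged 69.5 CPM in effector-like and 31.5 CPM in memory-like cells.

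Ccr7 and Il7r ordered the subsets as Foxo1 did, with all 3 comparisons past the threshold. Ccr7 averaged 71.9 ± 47.3 CPM in effector-like, 426 ± 139 CPM in memory-like and 1141 ± 193 CPM in naive-like cells. Il7r averaged 158 ± 56.6 CPM in effector-like, 328 ± 50.2 CPM in memory-like and 584 ± 136 CPM in naive-like cells. The log2 fold changes in effector-like against memory-like cells were -2.57 for Ccr7 (edgeR adjusted p = 0.000915) and -1.06 for Il7r (edgeR adjusted p = 0.0302).

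Of 19 other FOXO target genes tested, 1 was higher and 6 were lower in effector-like against naive-like cells, with a list median log2 fold change of -0.42. Irs2, the insulin receptor substrate, fell by 3.402 on the log2 scale, and Pik3ip1, an inhibitor of PI3K, by 2.02. Cdkn1a, which encodes the cell cycle inhibitor p21, was 1.40 log2 units higher in effector-like cells. In memory-like against naive-like cells 0 were higher and 3 lower (Irs2, Pik3ip1 and Sesn1, with log2 fold changes of -1.80, -1.10 and -1.33). Among 13 other quiescence factors tested, 1 was higher (Runx1, by 1.14 log2 units) and 4 were lower in effector-like against naive-like cells, and 0 were higher and 7 lower in memory-like against naive-like cells. Tcf7, Lef1 and Bach2 were lower than in naive-like cells in both subsets, with log2 fold changes of -2.87, -1.78 and -2.50 in effector-like cells and -1.27, -1.52 and -1.52 in memory-like cells. None of the 9 other KLF genes tested passed in any comparison of subsets.

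Cell cycle genes summed to 1491 to 1707 CPM in effector-like, 1429 to 1694 CPM in memory-like and 798 to 1056 CPM in naive-like libraries. Markers of other cells also moved with the subsets. The 10 plasmacytoid dendritic cell genes summed to 307 to 366 CPM in effector-like, 577 to 2188 CPM in memory-like and 235 to 628 CPM in naive-like libraries, and 4 of 10 were higher in memory-like than in naive-like cells. Siglech, their defining marker, had 0.13 to 15.6 CPM in effector-like, 17.7 to 416 CPM in memory-like and 0 to 63.5 CPM in naive-like libraries. The 9 myeloid genes ran the other way, with 3 lower in memory-like than in naive-like cells and 1 lower in effector-like cells. Of the 4 CD4 T cell genes 2 were higher in memory-like than in naive-like cells, with sums of 34.4 to 75.8 CPM in memory-like and 2.77 to 37.5 CPM in naive-like libraries. The part of these cells in the members' differences was not tested.

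**Figure D3:**
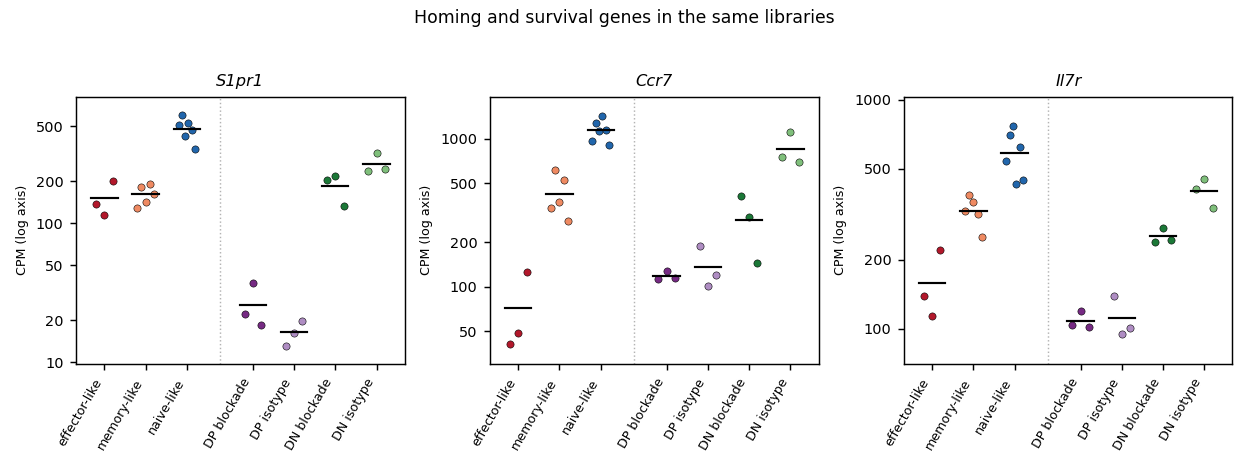
CPM (log axis, another range in each panel) of S1pr1, Ccr7 and Il7r in each bulk library, with bars at the group means. Effector-like and memory-like libraries overlap for S1pr1 and are apart for Ccr7 and Il7r, and every DP library lies below every DN library of the same treatment for each gene.

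The sort by Tim-3 and PD-1 compares DP cells, which carry both checkpoint receptors, with DN cells, which carry neither. Klf2 and Klf3 had the steepest differences of the 7, 11.8-fold and 12.9-fold lower in DP isotype than in DN isotype cells, followed by Foxp1, Foxo1 and Klf13. Klf6 was the member that passed in neither treatment. In DP isotype against DN isotype cells 5 of 7 members passed, all lower, where 29.9% of the 12710 genes tested passed and 14.8% were lower. In DP blockade against DN blockade cells 6 of 7 passed, all lower, where 27% of genes passed and 12.5% were lower. The member added after blockade was Foxo3. The members' median log2 fold changes were -1.24 and -0.78.

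Klf2 had 3.49, 4.83 and 3.26 CPM in DP isotype cells, against 44.2, 59.3 and 32.7 CPM in DN isotype cells. After blockade it had 4.70, 8.94 and 6.86 CPM in DP cells, against 37.9, 38.2 and 32.5 CPM in DN cells. Every DN library exceeded every DP library several times over. Klf2 was 11.8-fold lower in DP isotype than in DN isotype cells (log2 fold change -3.56 ± 0.28; edgeR adjusted p = 2.89e-06) and 5.29-fold lower in DP blockade than in DN blockade cells (-2.40 ± 0.26; edgeR adjusted p = 4.82e-05).

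Klf3 was as far apart between the sorts. It had 0.998, 2.52 and 0.837 CPM in DP isotype cells, against 16.4, 23.1 and 16.5 CPM in DN isotype cells. After blockade it had 1.72, 1.45 and 0.371 CPM in DP cells, against 17.1, 13.3 and 8.81 CPM in DN cells. Every DN library exceeded every DP library. The DP libraries rest on 4 to 25 counts of Klf3 each, so its fold changes have the widest errors of the 7, at -3.69 ± 0.49 after isotype (edgeR adjusted p = 0.000141) and -3.43 ± 0.49 after blockade (edgeR adjusted p = 0.000329).

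Foxp1 was 3.96-fold lower in DP isotype than in DN isotype cells, with 58.4, 58.2 and 68.4 CPM against 231, 287 and 215 CPM (log2 fold change -1.99 ± 0.15; edgeR adjusted p = 2.51e-06). After blockade it had 61.1, 51.6 and 61.2 CPM in DP cells, against 148, 173 and 118 CPM in DN cells (-1.33 ± 0.15; edgeR adjusted p = 6.36e-05). All DP libraries lay far below all DN libraries, and the DN levels were lower after blockade than after isotype.

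Foxo1 had 21.9, 17.4 and 22.5 CPM in DP isotype cells, against 50.2, 54.6 and 40.9 CPM in DN isotype cells, a log2 fold change of -1.24 ± 0.20 (edgeR adjusted p = 0.000535). After blockade the change was -0.78 ± 0.20 (edgeR adjusted p = 0.0120), a call lost without DP blockade replicate 2 (edgeR adjusted p = 0.0574) or DN blockade replicate 2 (edgeR adjusted p = 0.0530). Klf13 was 1.80-fold lower in DP isotype than in DN isotype cells, with means of 296 ± 26.4 and 531 ± 87.1 CPM (edgeR adjusted p = 0.000194). After blockade Klf13 was 1.47-fold lower in DP cells, with means of 259 ± 16.01 and 381 ± 26.1 CPM (edgeR adjusted p = 0.00433). No DP library reached a DN library of the same treatment for either gene. The share of all genes whose DP and DN libraries lay apart is not given here.

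Foxo3, like Klf6, did not pass after isotype. Foxo3 had 10.7, 12.98 and 13.1 CPM in DP isotype cells, against 16.8, 18.3 and 13.3 CPM in DN isotype cells, which did not pass (log2 fold change -0.40 ± 0.18; edgeR adjusted p = 0.112; 0.0474 without DN isotype replicate 3). After blockade it had 12.7, 15.4 and 15.7 CPM in DP cells, against 24.8, 25.9 and 20.3 CPM in DN cells (-0.70 ± 0.17; edgeR adjusted p = 0.0108; 0.0526 without DP blockade replicate 1). Klf6 averaged 503 ± 65.8 CPM in DP isotype and 414 ± 96.9 CPM in DN isotype cells, and the 95% interval of its log2 fold change was -0.15 to 0.71. That interval does not reach the log2 fold change of any of the 5 called members.

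The genes known to follow Klf2 and Foxo1 were lower in DP cells by amounts that span a wide range. S1pr1 was 16.3-fold lower in DP isotype than in DN isotype cells, with 13.2, 16.2 and 19.8 CPM against 238, 319.5 and 244 CPM (edgeR adjusted p = 1.17e-06). Ccr7 and Il7r were 6.28-fold and 3.58-fold lower in DP isotype cells. Itgb7, an integrin chain, and S1pr4, a relative of S1pr1, also passed and were lower in DP cells in both treatments.

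Of 19 other FOXO targets tested, 2 were higher and 9 lower in DP isotype against DN isotype cells, with a median log2 fold change of -0.71. Pik3ip1 fell by 3.17 on the log2 scale, Sesn1 by 1.71 and Txnip, which restrains glucose uptake, by 1.23. Cdkn1a and Rbl2 were the 2 higher genes, by 1.33 and 0.80. Among 13 other quiescence factors 0 were higher and 9 lower, led by Tcf7, Lef1 and Bach2 with log2 fold changes of -4.01, -2.67 and -2.34. Among 18 genes of the PI3K, AKT and mTOR pathway 2 were higher (Pik3cg and Akt1) and 5 lower.

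The other KLF and forkhead genes had smaller median log2 fold changes in DP isotype against DN isotype cells, -0.08 and -0.14, than the members, at -1.24. Of 9 other KLF genes tested, 1 was lower in DP isotype cells and none higher, and it was Klf11 (log2 fold change -0.91; edgeR adjusted p = 0.00154). Of 10 other forkhead genes, 2 were higher, Foxp3 and the cell cycle factor Foxm1, by 3.29 and 1.44 log2 units, and 4 were lower. Cell cycle genes rose in DP cells: 12 of 14 were higher and 1 lower in DP isotype against DN isotype cells, with sums of 2867 to 2928 CPM in DP isotype and 1294 to 1599 CPM in DN isotype libraries. Mki67, a marker of dividing cells, was 2.18 log2 units higher.

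DN cells carried more RNA of plasmacytoid dendritic cells. Of their 10 marker genes 9 were lower in DP isotype than in DN isotype cells. The 10 genes summed to 604 to 648 CPM in DP isotype and 1976 to 2932 CPM in DN isotype libraries. Siglech had 0.33 to 7.45 CPM against 459 to 725 CPM, but 0 UMIs in both libraries of DN single cells. Endothelial genes summed to 20.4 to 23.1 CPM in DP isotype and 121 to 143 CPM in DN isotype libraries. Of 9 myeloid genes 4 were higher and 1 lower in DP isotype cells, with sums of 229 to 273 CPM in DP isotype and 49.4 to 77.8 CPM in DN isotype libraries. Of the 4 CD4 T cell genes 3 were higher and Cd4 itself was lower in DP isotype cells. The part of dendritic, endothelial, myeloid and CD4 T cells in the members' differences was not tested.

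Treatment with both antibodies was compared with isotype within each sort. In DN cells Foxp1 was the member that passed, at a lower level after blockade, and Klf13 and Foxo3 had groups that did not overlap without passing. In DP cells no member passed. In DN blockade against DN isotype cells 1 of 7 members passed, where 1.12% of genes passed and 0.598% were lower. In DP blockade against DP isotype cells 0 of 7 passed, where 0.0629% of genes did; 1 member, Klf2, had an unadjusted p under 0.05 there, as did 7.15% of all genes, and limma-voom and DESeq2 called 0.

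Foxp1 had 148, 173 and 118 CPM in DN blockade cells, against 231, 287 and 215 CPM in DN isotype cells. The groups did not overlap, as was the case for 16.7% of all genes. Foxp1 was 1.67-fold lower after blockade (log2 fold change -0.74 ± 0.15; edgeR adjusted p = 0.0391). This call sits close to the threshold: with the title numbers of the libraries as a replicate block the edgeR adjusted p was 0.0677. When the fit was limited to the DN groups it was 0.175 without the block and 0.0515 with it. It was also lost without DN blockade replicate 1 or 3 or DN isotype replicate 1 or 2 (edgeR adjusted p = 0.0905, 0.133, 0.0966 and 0.102), while the log2 fold change stayed between -0.88 and -0.61 over the 6 libraries left out in turn.

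Klf13 had 375, 409 and 357 CPM in DN blockade cells, against 521, 623 and 450.1 CPM in DN isotype cells. The log2 fold change was -0.48 ± 0.12 (edgeR adjusted p = 0.0711; 0.0349 without DN isotype replicate 3). Foxo3 moved the other way, with 24.8, 25.9 and 20.3 CPM in DN blockade cells against 16.8, 18.3 and 13.3 CPM in DN isotype cells (0.55 ± 0.17; edgeR adjusted p = 0.158). Every DN blockade library was below every DN isotype library for Klf13 and above it for Foxo3. For Foxo1 the groups overlapped, with means of 34.2 ± 7.49 CPM in DN blockade and 48.6 ± 6.999 CPM in DN isotype cells (-0.51 ± 0.20; edgeR adjusted p = 0.232).

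Klf2 in DN cells had means of 36.2 ± 3.23 CPM after blockade and 45.4 ± 13.3 CPM after isotype, with a 95% interval of the log2 fold change from -0.85 to 0.20. Klf3 averaged 13.1 ± 4.14 CPM after blockade and 18.7 ± 3.85 CPM after isotype. The groups overlapped for both genes, and neither difference passed (edgeR adjusted p = 0.555 and 0.593). Ccr7 was the target that passed, at 409, 295 and 144 CPM after blockade against 755, 1118 and 699 CPM after isotype (log2 fold change -1.60; edgeR adjusted p = 0.0415). S1pr1 and Il7r were lower in every DN blockade than in every DN isotype library without passing (edgeR adjusted p = 0.331 and 0.0582).

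Of 19 other FOXO targets 3 were lower in DN cells after blockade and none higher: Txnip, Tsc22d3, a glucocorticoid-induced gene, and Pik3ip1, with log2 fold changes of -0.68, -0.78 and -1.16. Of the 13 other quiescence factors Lef1 was lower, by 1.38 log2 units. Of 15 immediate early genes Egr1 and Atf3 were higher, by 0.59 and 0.95 log2 units. No other KLF or forkhead gene and no gene of the PI3K, AKT and mTOR list passed.

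Blood and dendritic cell RNA also differed between the treatments, in bulk and in single cells. The 6 blood cell genes, haemoglobins among them, summed to 0.253 to 118 CPM in DN blockade libraries and 2709 to 5312 CPM in DN isotype libraries. All 6 were lower after blockade in bulk DN cells and 4 of 6 in bulk DP cells. The DN single cells went the other way. Hba-a1 and Hba-a2 were higher in the blockade library, with log2 ratios of 3.95 and 4.11, and Alas2 had 27 UMIs in blockade and 0 in isotype cells. Plasmacytoid dendritic cell genes summed to 1329 to 2021 CPM in DN blockade and 1976 to 2932 CPM in DN isotype libraries. Siglech had 214 to 361 CPM and 459 to 725 CPM. In the DN single cells most genes of this list were higher after blockade. Cd209d, Irf8, Klk1, Bst2 and Runx2 had log2 ratios of 1.42, 1.36, 1.28, 1.15 and 1.14, and Ly6d and Tcf4 0.37 and 0.31. Pacsin1 was lower there, at -1.07, as was Spib, at -0.55 from 15 and 22 UMIs. Of 9 myeloid genes 2 were higher in DN blockade cells, and Fcgr1, listed at 0 in all DN isotype libraries, had 2.18 to 10.0 CPM there. Their part in the members' values was not tested.

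In DP cells Klf2 had 4.70, 8.94 and 6.86 CPM after blockade, against 3.49, 4.83 and 3.26 CPM after isotype, a log2 fold change of 0.83 ± 0.28 (edgeR adjusted p = 0.590). The groups overlapped. The other 6 members had log2 fold changes between -0.25 and 0.25. The blockade effect was then compared between the sorts in 1 interaction contrast, DP minus DN. For Klf2 it was 1.15 ± 0.37 (edgeR adjusted p = 0.380) and for Foxp1 0.65 ± 0.21 (edgeR adjusted p = 0.382), and 0 of 12710 genes, 0%, passed. At an unadjusted p under 0.05 there were 1070 genes (8.42%), with 2 members, Klf2 and Foxp1, among them. At an adjusted p under 0.05 limma-voom called 0 genes and DESeq2 98, none of those a member. A difference in response between DP and DN cells was thus not shown for any member, nor was its absence.

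The single-cell libraries give the same DN comparison with 1 library per treatment and so with no test. After a filter on cells, 2502 blockade cells with a median of 3839.5 UMIs and 2950 isotype cells with a median of 3652 UMIs remained. Cells were given to a treatment by the number that ends their barcode, 1 or 2, read with the library names S1 and S2 in the labels. The libraries shared 7 barcodes. Summed UMIs are given as CPM, with exact Poisson intervals that cover counting error only. Log2 ratios were past 0.5 either way for 27.3% of the 9994 genes with at least 50 UMIs and under -0.5 for 5.82%, and their median over these genes was 0.16, so the scale as a whole lies slightly toward blockade.

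Klf2 had the highest CPM of the 7 and the largest difference, with 1071 CPM (1053 to 1089) in blockade cells, against 2436 CPM (2409 to 2464) in isotype cells. The log2 ratio was -1.19 (interval -1.22 to -1.16). With Klf2, 3 of 7 members had a log2 ratio under -0.5, the others being Foxo3 at -0.60, from 115 and 174 UMIs, and Foxp1 at -0.57. Foxo1 and Klf13 had log2 ratios of -0.42 and -0.30, and Klf3 and Klf6 -0.08 and 0.08. Foxp1 had 119 CPM (113 to 126) in blockade cells, against 178 CPM (170 to 185) in isotype cells.

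Set beside the bulk DN libraries, Foxp1 had a log2 difference of the same sign and near size, -0.57 in single cells and -0.74 in bulk. Klf2 differed more in single cells, at -1.19, than in bulk, at -0.33 with an interval that ends at -0.85. Foxo3 had opposite signs, -0.60 in single cells and 0.55 in bulk, where it did not pass. The bulk libraries read whole transcripts and the droplet libraries the 3′ end, and the animals are not stated to be the same.

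Among homing and survival genes in single cells, S1pr1 had 44.4 CPM in blockade and 69.7 CPM in isotype cells, Ccr7 150.4 CPM in blockade and 295 CPM in isotype cells, and Il7r 118 CPM in blockade and 187 CPM in isotype cells. All 3 were lower in the blockade library. Itgb7 and S1pr4 were not, at 239 and 125 CPM in blockade and 226 and 102 CPM in isotype cells. The other FOXO targets past a log2 ratio of 0.5 went both ways. Cdkn1a was higher, at 70.6 CPM in blockade and 27.8 CPM in isotype cells. Ccng2 and Bcl2l11 were also higher, with log2 ratios of 0.77 and 0.56. Bbc3, Sesn1, Pik3ip1, Tsc22d3 and Txnip were lower, with log2 ratios of -1.13, -0.87, -0.73, -0.66 and -0.51.

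Clustering without the members among the variable genes gave 13 clusters, of which 3, with 138 cells, were led by genes of other cells (keratin, antigen presentation and myeloid genes). These 3 clusters held 16.69% of the UMIs of the blockade library and 8.257% of those of the isotype library, from 3.597% and 1.627% of cells. Without them the log2 ratio of Klf2 was -1.14. No doublet caller was run. In 10 T cell clusters Klf2 spanned a wide range. It was highest in cluster 3, led by Dapl1, Ramp1 and Gm43698 and naive-like by its markers, with 3510 CPM, and in cluster 4, led by Gzmm, Itm2a and Bbc3, with 3011 CPM.

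Cluster 1, led by Ccl5, Klrg1 and Gzma and effector-like by its markers, had 1559 CPM of Klf2. Cluster 7, led by Klra7, Klra6 and Ikzf2, had 2038 CPM. Cluster 2, led by Cxcr6, Ifitm1 and 5430421N21Rik, had the least, at 366 CPM. The interferon-responding-like cluster 0 and the cycling-like cluster 9 were also low, at 640 and 626 CPM. The cluster with the least Klf2, cluster 2, also had the least Klf3, at 18.1 CPM, while Klf6 was at 599.5 CPM there, the third highest of the 10.

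The cells of the treatments fell into different clusters. Cluster 2 held 23.98% of blockade and 4.03% of isotype cells, and cluster 3 held 0.919% of blockade and 29.97% of isotype cells; with 1 library each, this split may be the libraries' own. Within clusters, Klf2 was lower in blockade cells in 9 of 10 T cell clusters, with a median log2 ratio of -0.48. In the 7 clusters with at least 40 cells of each library it was lower in all 7, by a median of -0.62. In cluster 1 it had 1336 CPM in blockade and 1934 CPM in isotype cells, and in cluster 7 1690 CPM in blockade and 2684 CPM in isotype cells.

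Klf6 showed a difference inside clusters that its pooled level did not. Its log2 ratio over all cells was 0.08, yet it was lower in blockade cells in 8 of 10 T cell clusters, with a median log2 ratio of -0.59 and a range of -0.82 to 0.64. In cluster 2 it had 556 CPM in blockade and 865 CPM in isotype cells, and in cluster 1 544 CPM in blockade and 831 CPM in isotype cells. Clusters 0, 1, 2 and 7, where Klf6 was highest, held most of the blockade cells.

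Foxp1 went the opposite way to Klf6 in this respect. Its pooled log2 ratio was -0.57, but it was lower in blockade cells in 5 of 10 T cell clusters, with a median of -0.05. In the 7 clusters with at least 40 cells of each library it was lower in 5, with a median of -0.12. Klf13, Klf3 and Foxo1 had median log2 ratios within the 10 clusters of 0.02, 0.07 and -0.26, and of 0.12, 0.07 and -0.40 within those 7. Foxo3 had too few UMIs per cluster to read. In the cycling-like cluster Foxp1 had 68.4 CPM in blockade and 159 CPM in isotype cells.

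**Figure D4:**
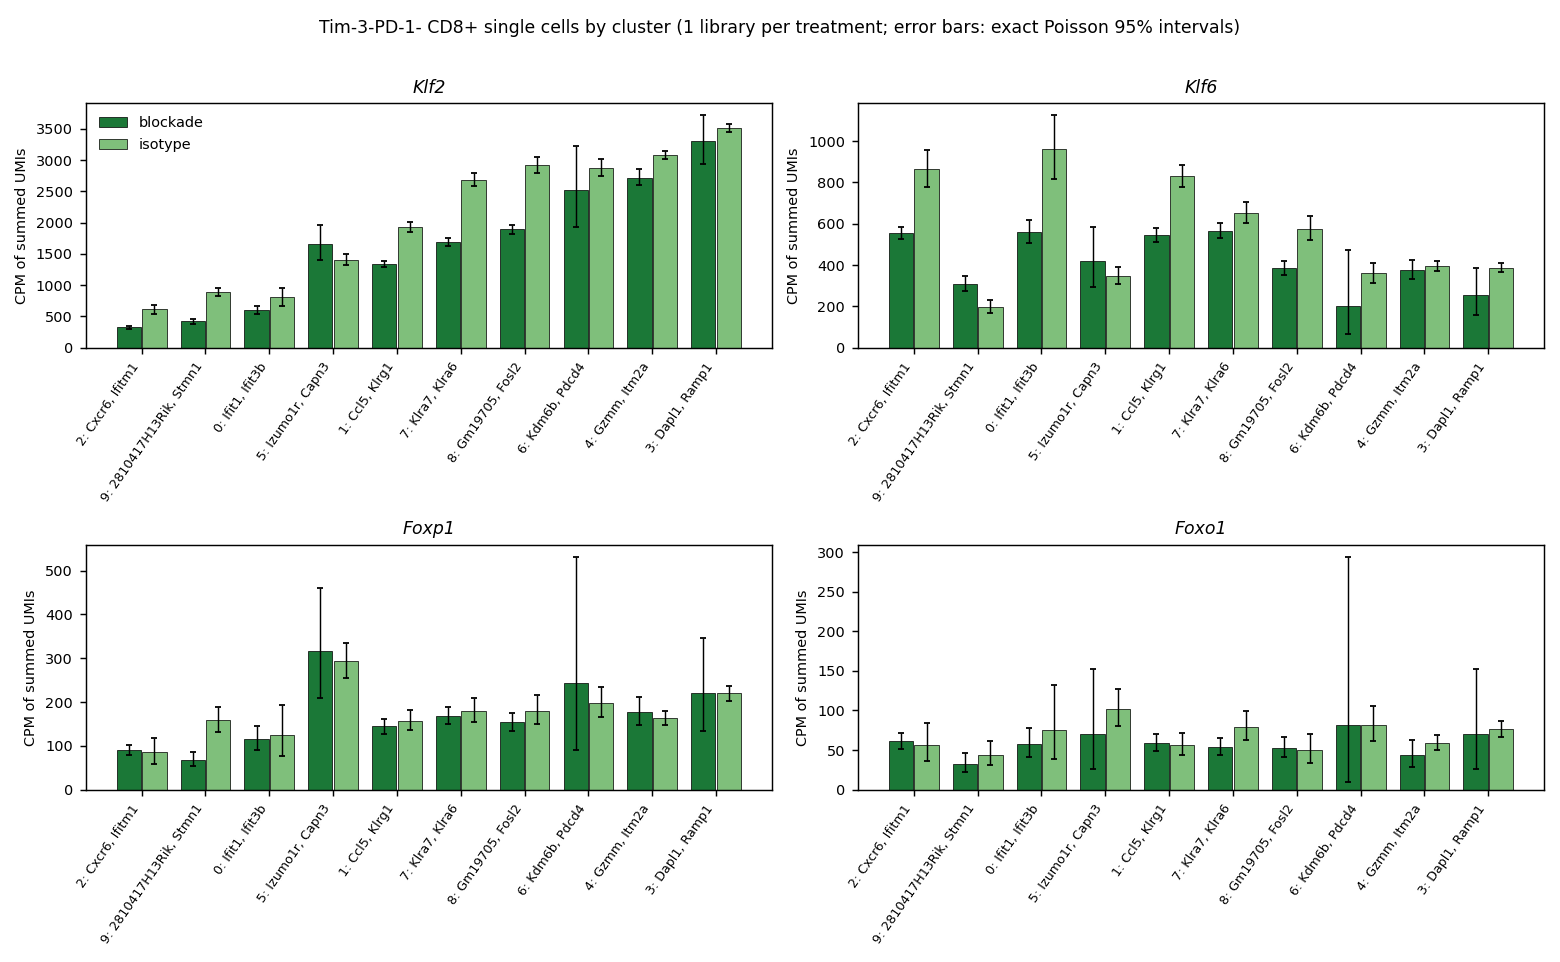
CPM of summed UMIs of Klf2, Klf6, Foxp1 and Foxo1 in the 10 T cell clusters of DN single cells, blockade left of isotype, with exact Poisson 95% intervals that cover counting error only; clusters run by their Klf2 level and carry their 2 leading genes. Klf2 climbs across clusters and is lower after blockade in 9 of 10, and Klf6 is lower after blockade in 8 of 10.

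The genes most like each member over the 7 bulk groups were found by the root mean square difference of group mean log2 CPM, centred within each table, among 11899 genes tested in both. For Klf2 they were Rtn4rl1 at 0.197, Mef2b at 0.289 and Tnfrsf25 at 0.340, and for Klf3 Kcna2 at 0.260, Dirc2 at 0.271 and Mef2b at 0.323. These distances are large because both members vary widely, with a root mean square spread over the groups of 1.18 for Klf2 and 1.38 for Klf3. Nearest to Foxp1 were Nt5e, which encodes CD73, at 0.0680, Man2a2 at 0.0888 and Ppp1r13b at 0.109.

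For Klf13 the nearest genes were Sptbn1 at 0.0350, Srsf5 at 0.0555 and Pan3 at 0.0701. For Foxo1 they were 1810026B05Rik at 0.0614, Fam189b at 0.0623 and Usp12 at 0.0702, and for Foxo3 Gpsm1 at 0.0958, Ppp1r37 at 0.0982 and 4921511C10Rik at 0.109. Klf6, which hardly varied over the groups (0.175), was close to many genes, the nearest being Tmem164 at 0.0265, Mrps24 at 0.0355 and Mical1 at 0.0391. With 7 groups and 11899 genes, near patterns arise among many genes, so these are descriptions.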

How the data were processed

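Bulk RNA was sequenced from cells lysed after sorting with an adapted SMART-Seq2 protocol, per the labels' protocols. The authors deposited expected counts per gene, which are estimated read numbers that need not be whole (22.6% and 30.5% of values were not whole in the subset and treatment tables). The authors also deposited a normalized signal of unnamed scale, which was a constant multiple of the counts within 1% in each gene checked and followed gene length. For single cells the authors deposited UMI counts, and a scaled table of natural log values per the deposited values. The submitters' processing notes name TopHat, RSEM, DESeq and mm9, and Cell Ranger 1.3 and mm10; which tool made which table is not given in the sources used here.

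Expected counts were rounded, filtered with filterByExpr and scaled by TMM, and each table was fitted whole with edgeR 4.0.16 (quasi-likelihood, group means, Benjamini-Hochberg adjustment over all genes tested, threshold 0.05) in R 4.3.3. The 4 rows with a repeated name in the subset table were left out. Alternatives were limma 3.58.1 with voom, DESeq2 1.42.0, limma on log2(normalized signal + 1), other scaling and filters, replicate blocks and libraries left out. Tests were tried on simulated counts. Between 10.7% and 20.7% of subset counts and 11.4% and 18.8% of treatment counts fell on Rn45s, a ribosomal RNA.

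Deviations of DN blockade and DN isotype libraries with the same title number correlated at 0.122 to 0.383 over 3 pairs. By title number, DP and DN libraries correlated at -0.334 to -0.006 after isotype and -0.0587 to 0.0424 after blockade. The labels state no pairing, and 3 pairs are too few to show one, so the blocks by title number are alternatives only. Single cells under 500 genes or over 10% mitochondrial UMIs were dropped (scanpy 1.11.5) and clustered with the members left out of the 2000 variable genes. Sums of UMIs were used, with 95% exact Poisson intervals. Intervals cover counting error only.

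Named genes were all 7 members and S1pr1, Ccr7 and Il7r in each comparison (another gene of this rule is not reported here), and up to 3 called genes per direction and list. Itgb7, S1pr4 and the single-cell values of other FOXO targets were added after their values were seen. The members and lists were chosen with earlier results of these data known. Promoter letters come from RefSeq and gene positions from GENCODE M21.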

Additional observations from a re-analysis of the deposited data

Results flagged for a closer look

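Foxo3 in naive-like replicate 2 lay apart from its group, at 15.1 CPM, below the other 5 libraries of that group. Its gap to the nearest library was 0.664 of the group's range. This was the 1 library apart among 22 groups of 4 to 10 libraries examined, and chance flags about 1 in 20 such groups.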

How the results depend on the processing

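The number of members called changed by more than 1.5 times in 3 comparisons. In effector-like against memory-like cells it was 0, and 1 (Klf2, higher) with a replicate block by title number or with DESeq2, and 0 to 1 with single libraries left out. In memory-like against naive-like cells it was 2, and 4 without the 4 libraries that correlated least with their groups, 4 when effector-like replicate 3 of these was kept (both added after seeing the data), 5 with DESeq2, and 2 to 4 with single libraries left out. In DN blockade against DN isotype cells it was 1, and 0 with the replicate block by title number, 0 with only the groups compared, 0 with both, 2 with DESeq2, and 0 to 2 with single libraries left out. In single cells the log2 ratio of Klf2 was -1.14 without clusters that are not T cells and -1.10 as a mean of per-cell CPM, and that of Foxp1 was -0.47 as a mean of per-cell CPM. With single libraries left out, signs turned for values that had not passed: Klf13 in effector-like against memory-like cells ranged from -0.19 to 0.25, and Klf6 in DN blockade against DN isotype cells from -0.027 to 0.39. In DP blockade against DP isotype cells Klf3 ranged from -0.58 to 0.39, Ccr7 from -0.38 to 0.13 and Il7r from -0.14 to 0.17. Without the 4 libraries that correlated least, Klf13 was at -0.19 in effector-like against memory-like cells and Klf2 at -0.073 in effector-like against naive-like cells. The cause was not tested. Under the replicate block by title number Klf2 passed in both comparisons with memory-like cells (edgeR adjusted p = 0.0421 and 0.0284) and Klf6 passed, higher, in effector-like against naive-like cells (edgeR adjusted p = 0.0256). Blocking by library-name number instead left 2 of 7 members passing in memory-like against naive-like cells. Klf2 and Klf3 did not pass there (edgeR adjusted p = 0.178 and 0.327). Under the block by library-name number Klf6 passed, higher, in DP isotype against DN isotype cells (edgeR adjusted p = 0.0429). With this block 6 of 7 members passed in each comparison of DP with DN cells. Same-numbered DP and DN libraries correlated at 0.0612 to 0.152 after blockade and -0.006 to 0.326 after isotype. The medians were 0.0822 and 0.268, against -0.0536 and -0.0983 for libraries of other numbers. The labels do not state whether same-numbered DP and DN libraries share animals, and the main tests used no block. The block by library-name number was not run for comparisons whose groups share fewer than 2 such numbers. The 4 to 25 counts of Klf3 in DP libraries and the 115 and 174 UMIs of Foxo3 limit those values.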
